A study of Mus musculus with 8 samples.

Results

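Foxo3 and Foxo4, together with 7 genes known as targets of FOXO factors or of their target KLF2, were followed across common lymphoid progenitors of 3 genotypes. The 9 genes are Foxo3, Foxo4, Klf2, S1pr1, Ccng2, Irs2, Sesn1, Pik3ip1 and Bcl6. They were chosen by symbol, as all probe sets that name 1 of them alone, which gave 18 of the 45101 probe sets on the array. Each of the 9 had at least 1 probe set bright enough to test, among 11957 genes tested in all. Of the 18 probe sets 16 passed the filter on dim signal, which asked for a value above the array's median on at least 2 of the 8 arrays.

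The cells were bone marrow progenitors of C57bl/6 mice aged 10 to 13 weeks, sorted as negative for lineage markers and LY6D and positive for FLT3 and CD127. The groups were wild type mice (WT, 2 arrays), HEB-KO mice, which lack HEB, the product of Tcf12 (2 arrays), and E2A-KO mice, which lack E2A, the products of Tcf3 (4 arrays). HEB and E2A are E proteins, transcription factors that bind the DNA motif called E-box and act at the start of lymphoid development. Each array held RNA pooled from several marrows, so the spread is that between pools and not between mice. The labels state at least 2 sorts per genotype, and which alleles were used is not stated in any source at hand. All groups share the same gate and the same amplified labelling of small RNA amounts.

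FOXO proteins are forkhead transcription factors held in check by PI3 kinase. When growth factor or antigen receptor signalling is on, the kinase AKT phosphorylates them and they leave the nucleus. When it is off they turn on genes for quiescence, stress defence, survival and homing. In lymphocytes FOXO1 drives the IL-7 receptor chain, the recombinase genes and KLF2, and KLF2 in turn drives S1pr1, the receptor that lets lymphocytes leave tissues for the blood.

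Levels are log2 of the deposited intensity. Where a gene has several probe sets, the brightest stands for it unless another is named. A difference passed the test when its limma p, adjusted over all tested genes by Benjamini-Hochberg, was under 0.05, and "rose" and "fell" are kept for these. In E2A knockout against WT cells 53 genes passed (0.443% of those tested; 0.0502% rose and 0.393% fell), 14 passed between E2A and HEB knockout cells (0.117%; 0.0167% higher and 0.1% lower without E2A), and 0 passed between HEB knockout and WT cells (0%), where 312 had an unadjusted p under 0.05 by limma. These counts rest on single arrays. With 1 array left out they ran from 2 (without WT replicate 2) to 104 (without E2A_KO replicate 3) for E2A knockout against WT, and from 1 (without either HEB_KO array or E2A_KO replicate 1) to 21 (without E2A_KO replicate 3) between the knockouts. The targeted genes were lowest where the labels say they were lost. Tcf3 read 3.71 to 4.28 on E2A knockout arrays against 7.76 and 7.98 on WT arrays, and Tcf12 read 7.10 and 6.49 on HEB knockout arrays against 8.85 and 8.76 on WT arrays. Of 7 marker genes of common lymphoid progenitors, 6 lay above the median on all 8 arrays, Ly6d being the exception. The list goes beyond the sort, with Kit, Cd34, Cd93 and Dntt added. Its mean per array was 8.38 to 9.11 without E2A and 9.39 to 10.17 elsewhere. All 7 genes differed negatively between E2A knockout and WT cells. Cd93 fell (-1.34, limma adjusted p = 0.0273), as did Il7r, described further on. Kit differed by -2.08 (limma adjusted p = 0.0823) and Flt3 by only -0.24. Transcripts of Ly6d, the marker the cells were sorted against, read 6.75 to 7.83 on 4 arrays (WT 2, HEB_KO 1, E2A_KO 1 and E2A_KO 4) and 3.53 to 4.48 on the other 4, so the former go against the label at the RNA level. Granulocyte and monocyte markers also varied. The mean of 11 such genes was 6.91 and 7.93 on HEB knockout arrays, 7.22 on E2A_KO 3 and 5.25 to 6.33 on the others. Hybridization controls were lowest on WT 2 and HEB_KO 1 (10.07 and 10.11, against 11.23 to 12.51 elsewhere), and the erythroid factor Klf1 read 7.81 on E2A_KO 1 against 3.81 to 5.35 on the others.

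None of the 9 genes passed the test in any of the 3 comparisons (limma, 0 of 9 in each). The gene with the largest difference was Klf2, which read higher on every knockout array than on either WT array. Ccng2 and Sesn1 read lower on every E2A knockout array than on either WT or HEB knockout array, by less than 2-fold at their brightest probe sets. Foxo3 and Foxo4 themselves differed little at their brightest probe sets. Unadjusted p lay under 0.05 for 3 of 9 genes in E2A knockout against WT cells (Klf2, Ccng2 and Sesn1), where 13.4% of all tested genes did. The count was 1 of 9 in HEB knockout against WT cells (Klf2), where 2.61% of all genes did, and 2 of 9 between the knockouts (Ccng2 and Sesn1), where 16.5% of all genes did.

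**Figure D1:**
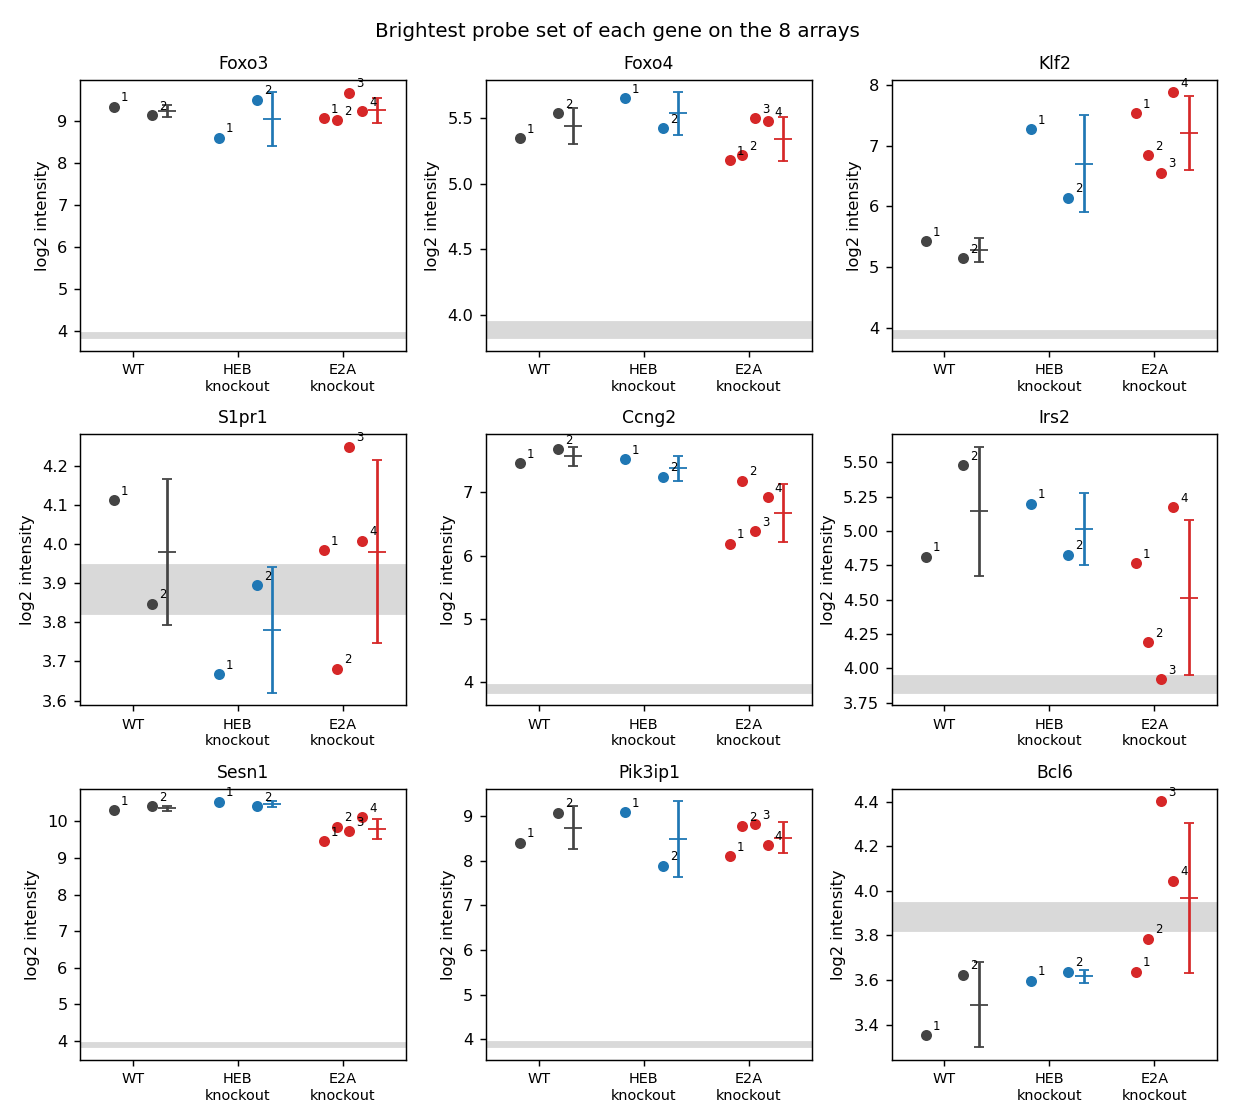
Log2 intensity of the brightest probe set of each of the 9 genes (y axis, which differs between panels) on the 2 WT, 2 HEB knockout and 4 E2A knockout arrays. Points are arrays with their replicate numbers, bars are mean and SD, and the grey band spans the medians of the 8 arrays. Klf2 lies between 6.14 and 7.88 on the knockout arrays, above both WT arrays (5.42 and 5.14), while the points of S1pr1 and Bcl6 lie close to the grey band.

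Among the factors, Foxo3, the FOXO protein best known for quiescence and survival of blood stem cells, read 9.35 and 9.15 in WT, 8.61 and 9.51 in HEB knockout and 9.08, 9.03, 9.69 and 9.25 in E2A knockout cells. The 3 genotypes overlapped, and the lowest and the second highest values were the HEB knockout pair. The log2 difference was 0.01 for E2A knockout against WT (SE 0.30, 95% interval -0.67 to 0.70) and -0.19 for HEB knockout against WT (SE 0.35, interval -0.98 to 0.60). A second probe set of Foxo3 read 6.55 to 7.85 over the 8 arrays and differed by 0.01 and -0.31 in the same comparisons, and the dimmest was above the median on 0 arrays.

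Foxo4, the X-linked member of the family, read 5.34 and 5.54 in WT, 5.65 and 5.42 in HEB knockout and 5.18, 5.22, 5.50 and 5.47 in E2A knockout cells. Its genotypes overlapped too. It differed by -0.10 in E2A knockout (SE 0.21, interval -0.57 to 0.38) and by 0.10 in HEB knockout cells (SE 0.24, interval -0.45 to 0.64). At its other, dimmer probe set the E2A knockout arrays (4.09 to 4.29) lay above both WT arrays (3.97 and 4.02), a difference of 0.18 near background, so the 2 probe sets differ in sign. Arrays higher without overlap were found for 9.98% of all tested genes in this comparison.

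Foxo1, the factor that is not among the 9 and is given here as the family's reference, fell without E2A, with a log2 difference of -2.19 from WT (SE 0.35, limma adjusted p = 0.0416), from 7.93 and 8.49 in WT to 6.60, 5.53, 5.60 and 6.34. This call is close to the threshold. It was lost without WT replicate 1, WT replicate 2, either HEB_KO array, E2A_KO replicate 2 or E2A_KO replicate 4 (adjusted p 0.0642 to 0.3318), while the difference stayed between -1.92 and -2.47. Averaged over the 4 probe sets of Foxo1 it was -0.92 (limma adjusted p = 0.1473). In HEB knockout cells Foxo1 differed by -0.39 (SE 0.40). Whether Foxo1 and Foxo3 differ in their response was not tested.

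Klf2, a zinc finger factor that keeps lymphocytes quiescent and sets their homing receptors, has 1 probe set on the array. The sequence before its transcription start is shown first because Klf2 had the largest difference of the 9 genes. The same window is shown for Ccng2, Irs2 and Pik3ip1, which are described further on. Each line holds the 250 bases before the start, 5′ to 3′ on the gene's strand, from RefSeq on GRCm38.p6, and capitals mark matches to the motifs explained after the lines.
Klf2 (chr8:72318812-72319061, plus strand): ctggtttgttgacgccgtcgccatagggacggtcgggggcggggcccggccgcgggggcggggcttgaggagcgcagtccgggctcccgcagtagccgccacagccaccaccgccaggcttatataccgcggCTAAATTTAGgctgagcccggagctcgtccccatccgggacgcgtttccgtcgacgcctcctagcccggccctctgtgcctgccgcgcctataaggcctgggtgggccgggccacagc
Ccng2 (chr5:93267323-93267572, plus strand): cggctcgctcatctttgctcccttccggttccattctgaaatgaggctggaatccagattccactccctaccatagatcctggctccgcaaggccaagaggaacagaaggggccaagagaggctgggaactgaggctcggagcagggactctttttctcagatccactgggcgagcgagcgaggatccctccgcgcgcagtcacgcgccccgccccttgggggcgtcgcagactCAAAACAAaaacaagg
Irs2 (chr8:11008930-11009179, minus strand): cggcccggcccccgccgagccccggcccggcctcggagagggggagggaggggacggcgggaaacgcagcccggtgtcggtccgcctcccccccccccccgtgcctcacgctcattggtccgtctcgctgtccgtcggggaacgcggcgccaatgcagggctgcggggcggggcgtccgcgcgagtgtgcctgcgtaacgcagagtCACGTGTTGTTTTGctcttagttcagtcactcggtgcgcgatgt
Pik3ip1 (chr11:3330481-3330730, plus strand): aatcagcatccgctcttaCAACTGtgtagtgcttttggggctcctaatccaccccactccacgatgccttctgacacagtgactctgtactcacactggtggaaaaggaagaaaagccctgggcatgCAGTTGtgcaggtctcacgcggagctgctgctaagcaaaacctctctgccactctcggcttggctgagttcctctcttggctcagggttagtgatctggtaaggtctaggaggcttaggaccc

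RefSeq gave a window for 7 of the 9 genes, 9 windows in all, with 2 each for Sesn1 and Bcl6. Foxo4 and S1pr1 had none. Motifs were searched on both strands. The FOXO core TGTTTAC was in 0 of the 9 windows and in 3.17% of all 32851 windows of this length. The insulin response element TTGTTTTG (CAAAACAA), a looser FOXO motif, was in the windows of Ccng2, starting 16 bases before the start, and Irs2, starting 38 bases before it, and in 2.21% of all windows. The general E-box CANNTG was in the windows of Irs2 (1 match), Pik3ip1 (2) and the first of Bcl6 (1), and in 66.2% of all windows, while the forms CAGCTG and CACCTG were in 0 of the 9 and in 13.0% and 17.2% of all. In Irs2 the E-box CACGTG ends where the insulin response element begins, so both stand in 1 run of capitals. Klf2 held 0 E-boxes in this window and 1 match to the palindromic MEF2-type motif, the letters CTA and TAG held 4 bases apart, which 3.20% of all windows hold. MEF2 factors are known activators of Klf2 in endothelial cells. The insulin response and MEF2-type motifs were added after the windows had been read, and a match of letters is a description, not a binding site.

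Klf2 read 5.42 and 5.14 in WT, 7.27 and 6.14 in HEB knockout and 7.53, 6.85, 6.56 and 7.88 in E2A knockout cells. All 6 knockout arrays lay above both WT arrays, and the 2 knockouts overlapped each other. Arrays higher without overlap were also found for 9.98% of all tested genes when E2A knockout was set against WT cells, for 23.4% when HEB knockout was, and for 7.82% when E2A was set against HEB knockout. WT arrays averaged 5.28 ± 0.20 (SD, n = 2), those lacking HEB 6.70 ± 0.80 (n = 2) and those lacking E2A 7.20 ± 0.61 (n = 4). The log2 difference was 1.92 in E2A knockout (3.78-fold, SE 0.43, interval 0.95 to 2.89, limma adjusted p = 0.1047) and 1.42 in HEB knockout cells (2.67-fold, SE 0.49, interval 0.30 to 2.54, limma adjusted p = 1). Between the knockouts it was 0.50 (SE 0.43, interval -0.47 to 1.47). Both comparisons against WT use the same 2 WT arrays, so they are not independent of each other. In bulk RNA a higher level in each cell and more cells that express the gene cannot be told apart.

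Within each knockout the arrays with high Ly6d were also those with high Klf2. HEB_KO 1 read above HEB_KO 2, and E2A_KO 1 and 4 above E2A_KO 2 and 3, whereas WT 2 (5.14) read slightly below WT 1 (5.42) despite its higher Ly6d. With the 4 arrays of high Ly6d left out, only WT 1, HEB_KO 2 and E2A_KO 2 and 3 remained. The difference from WT was then 1.28 without E2A and 0.72 without HEB, each resting on WT 1 alone. With Ly6d as a covariate it was 1.93 and 1.44. In the HEB knockout comparison 1 array moved the value, to 0.86 without HEB_KO replicate 1, against a highest value of 1.98 without HEB_KO replicate 2. Between arrays of the same knockout, granulocyte and monocyte markers ran the other way. They were higher on HEB_KO 2 than on HEB_KO 1 and highest among the E2A knockout arrays on E2A_KO 3, where Klf2 was lowest. Between genotypes their mean was higher on both HEB knockout arrays (6.91 and 7.93) than on WT arrays (5.54 and 6.33), as was Klf2. On E2A_KO 1, 2 and 4 it was lower than in WT (5.25 to 5.38). Klf2 is also high in endothelial cells, and 4 of 8 endothelial markers were above the median on 0 arrays, Cdh5 on 1 and Kdr on all 8. The mean of the 8 markers was 3.16 and 3.22 in WT, 3.15 and 3.45 in HEB knockout and 3.32, 3.39, 3.38 and 3.53 in E2A knockout cells. It was thus higher on all E2A knockout arrays than on WT arrays, and highest on E2A_KO 4, as was Klf2. Between the HEB knockout arrays the order was the reverse, with the lower mean on HEB_KO 1, where Klf2 was higher. On every array this mean lay below the array median (3.82 to 3.95). Kdr, a receptor for VEGF, differed by 0.45 in E2A knockout cells (SE 0.28). The means of mature B cell markers (3.84 to 4.33) and T cell markers (3.76 to 4.02) lay near the array medians, with the upper B cell value on E2A_KO 4 too. Single B cell genes departed from that mean. Cd22 read 3.79 and 3.74 in WT, 4.27 and 4.28 in HEB knockout and 4.79, 5.21, 3.42 and 6.03 in E2A knockout cells, and Cd79b read 6.77 to 7.73. Of 6 tested dendritic cell genes, 5 were negative in E2A knockout against WT cells. The positive one, Siglech (0.79), was highest on E2A_KO 4 (6.95), as was Klf2. The part of these cells in the Klf2 result was not tested.

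**Figure D2:**
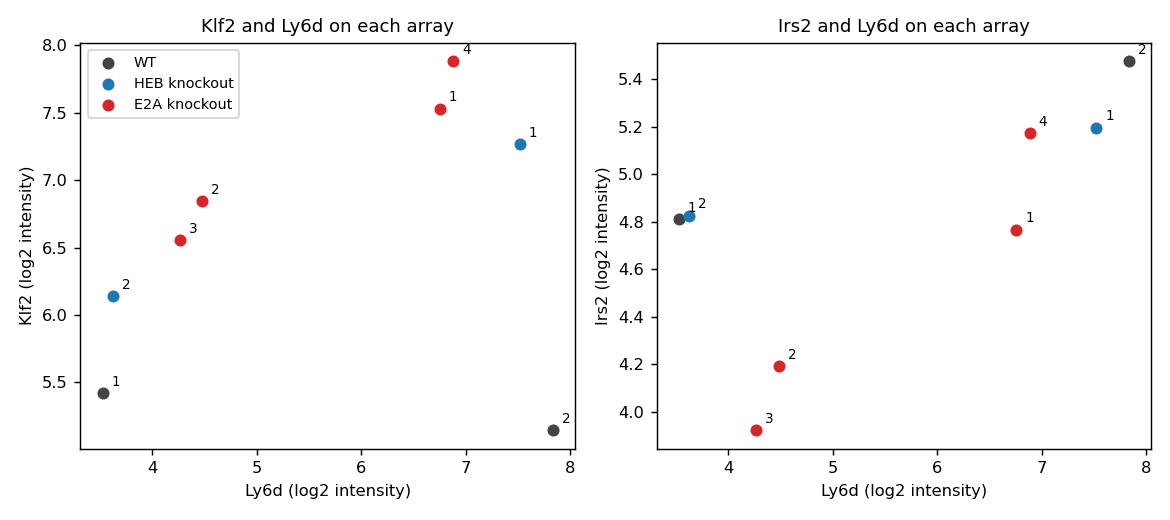
Klf2 (left) and Irs2 (right) against Ly6d, both as log2 intensity, on each of the 8 arrays coloured by genotype and numbered by replicate. Klf2 is higher on the arrays with high Ly6d in both knockouts and lower on the WT array with high Ly6d (5.14), and Irs2 is higher on such arrays in all 3 genotypes.

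The genes whose pattern over the 8 arrays was most like that of Klf2 were Pcyt1a, an enzyme of phosphatidylcholine synthesis (Pearson r 0.93 over 8 arrays of 3 genotypes), the kinase gene Vrk1 (0.93) and Pdcd1, which encodes the inhibitory receptor PD-1 (0.92). Such values describe these arrays, which share genotype, pool and amplification.

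S1pr1, the KLF2 target that guides egress from marrow and lymphoid organs, was barely above background. It read 4.11 and 3.85 in WT, 3.67 and 3.89 in HEB knockout and 3.98, 3.68, 4.25 and 4.01 in E2A knockout cells, with array medians of 3.82 to 3.95. It exceeded the median on 5 of 8 arrays. The genotypes overlapped, with differences of 0.00 in E2A knockout (SE 0.23, interval -0.51 to 0.52) and -0.20 in HEB knockout cells (SE 0.26). Signal this near the median understates any difference.

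Bcl6, which encodes a transcriptional repressor active in germinal centre B cells and which FOXO factors can induce, was dimmer still. Its brighter probe set read 3.35 and 3.62 in WT, 3.60 and 3.64 in HEB knockout and 3.64, 3.78, 4.40 and 4.05 in E2A knockout cells. It passed the filter through E2A_KO 3 and 4 alone, so that these arrays read higher carries no weight. The other probe set differed in the opposite direction in E2A knockout cells (-0.25, against 0.48 at the brighter one). It passed the filter through WT 2 and HEB_KO 2 alone, so its lower values without E2A carry no weight either. Neither passed the test.

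Ccng2, an atypical cyclin that FOXO factors induce in resting cells, read 7.47 and 7.68 in WT, 7.52 and 7.25 in HEB knockout and 6.19, 7.18, 6.39 and 6.92 in E2A knockout cells. The 4 E2A knockout arrays lay below the 4 others, while WT and HEB knockout overlapped. Arrays lower without overlap were found for 15.4% of all tested genes in E2A knockout against WT and 21.6% against HEB knockout cells. The mean was 7.58 ± 0.15 (SD, n = 2), 7.39 ± 0.20 (n = 2) and 6.67 ± 0.46 (n = 4) in that order. The log2 difference was -0.91 in E2A knockout against WT cells (1.87-fold, SE 0.30, interval -1.59 to -0.22, limma adjusted p = 0.2564), -0.71 against HEB knockout cells (SE 0.30, limma adjusted p = 0.2878) and -0.19 in HEB knockout against WT cells (SE 0.35). A dim second probe set, above the median on 1 array and so not tested, read 3.57 and 3.94 in WT, 3.26 and 3.30 in HEB knockout and 2.87 to 3.08 in E2A knockout cells. It thus showed the same order at background level.

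The pattern most like that of Ccng2 was Cmah, the hydroxylase of sialic acid (Pearson r 0.96 over the 8 arrays), followed by Zfp932 (0.95) and Riok3 (0.95).

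Sesn1, a sestrin that restrains the growth kinase mTOR and is a target of both FOXO factors and p53, has 4 probe sets. The brightest read 10.31 and 10.41 in WT, 10.53 and 10.41 in HEB knockout and 9.45, 9.85, 9.73 and 10.11 in E2A knockout cells. All 4 E2A knockout arrays lay below the 4 others. Such a gap was found for 15.4% of all tested genes against WT and 21.6% against HEB knockout cells. The difference was -0.57 against WT (1.49-fold, SE 0.23, interval -1.10 to -0.05, limma adjusted p = 0.3391) and -0.69 against HEB knockout cells (1.61-fold, SE 0.23, interval -1.21 to -0.16, limma adjusted p = 0.2157), and HEB knockout cells differed from WT by 0.11 (SE 0.27). A dimmer probe set showed the larger gap, with 7.77 and 7.87 in WT, 8.30 and 7.995 in HEB knockout and 6.41, 7.33, 6.56 and 7.10 in E2A knockout cells. It differed by -0.97 from WT and -1.30 from HEB knockout cells (2.46-fold, SE 0.30), with limma adjusted p over all 20849 tested probe sets of 0.2558 and 0.1587. The other 2 probe sets overlapped between E2A knockout and WT arrays. One differed by -0.06 in E2A knockout cells, with E2A_KO 1 (9.16) alone below the rest (9.71 to 9.99), and the other, at -0.54, ranged from 3.99 to 6.39 with WT arrays at 6.39 and 4.20. The 4 probe sets of Sesn1 therefore did not move alike.

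Sesn1 read lowest on E2A_KO 1 at its 3 brighter probe sets, and Ccng2 did so too. That array also held the highest Klf1. The log2 difference of Sesn1 in E2A knockout against WT cells was -0.46 without E2A_KO replicate 1, and that of Ccng2 was -0.74.

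Pik3ip1, an inhibitor of PI3 kinase at the membrane that FOXO factors are known to induce, gave discordant probe sets. The brightest read 8.40 and 9.08 in WT, 9.09 and 7.89 in HEB knockout and 8.10, 8.78, 8.82 and 8.35 in E2A knockout cells. Here all genotypes overlapped, with differences of -0.23 (SE 0.38, interval -1.09 to 0.63) and -0.25 (SE 0.44) against WT. The second probe set read 6.43 and 6.29 in WT, 5.47 and 5.67 in HEB knockout and 5.36, 3.91, 5.29 and 4.62 in E2A knockout cells. At that probe set the genotypes stood apart in the order WT, HEB knockout, E2A knockout. Of all tested genes 11.4% were lower without overlap in HEB knockout against WT cells, 15.4% in E2A knockout against WT cells and 21.6% between the knockouts. The difference from WT was -1.57 in E2A knockout (2.96-fold, SE 0.39, interval -2.46 to -0.68) and -0.79 in HEB knockout cells (SE 0.45, interval -1.82 to 0.24). Over all probe sets tested neither passed (limma adjusted p = 0.1636 and 1). Among all tested probe sets 0.211% passed in E2A knockout against WT cells and 0.0048% between the knockouts, and 0 of the 16 tested probe sets of the 9 genes did in either.

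**Figure D3:**
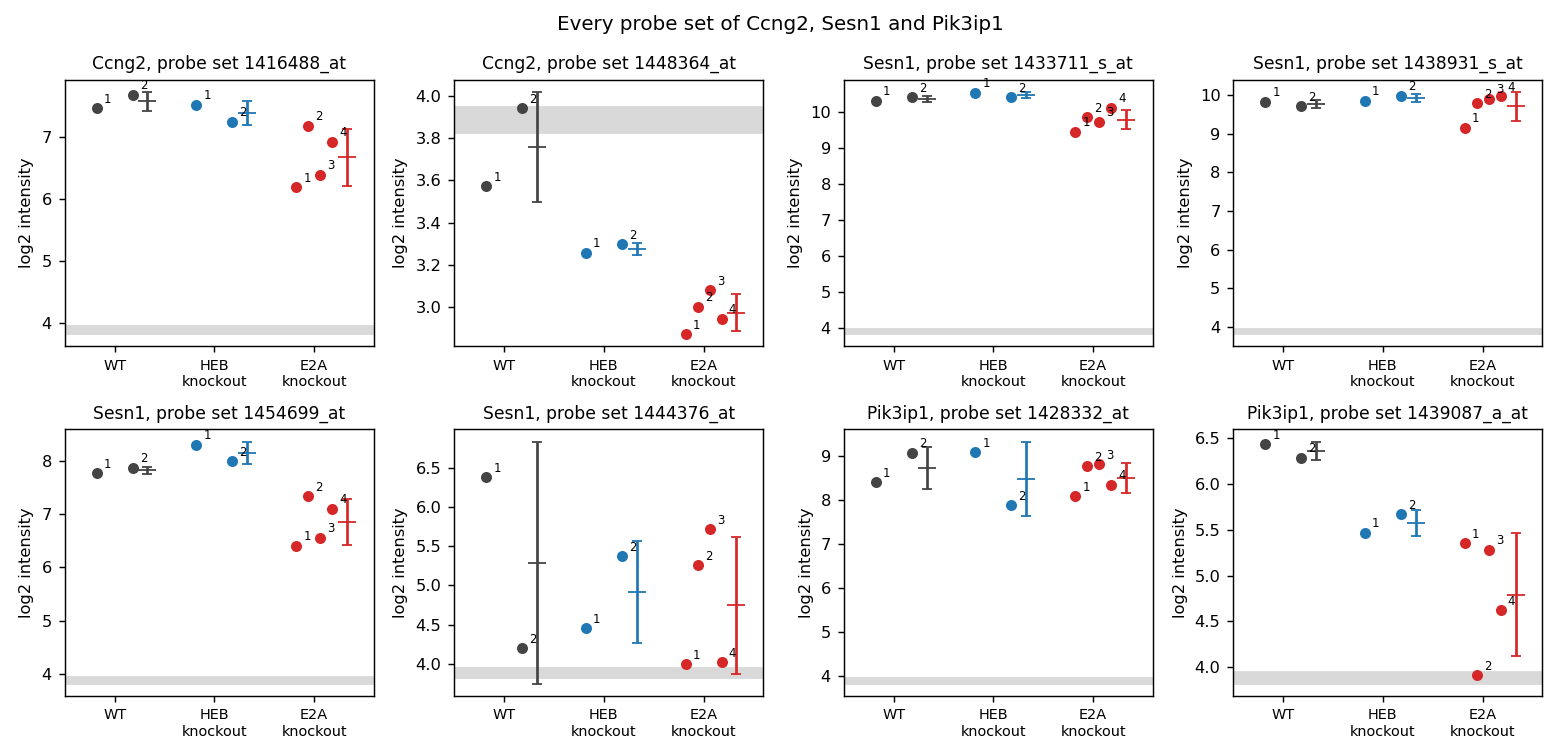
Log2 intensity (y axis, which differs between panels) of all probe sets of Ccng2, Sesn1 and Pik3ip1 on each array, with mean and SD per genotype and the band of array medians in grey. The second Pik3ip1 probe set steps down from WT (6.29 and 6.43) to E2A knockout arrays (3.91 to 5.36), while the first overlaps in all genotypes.

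Irs2, an adaptor that links insulin and cytokine receptors to PI3 kinase and is induced by FOXO factors when that kinase is off, has 1 probe set. It read 4.81 and 5.48 in WT, 5.20 and 4.83 in HEB knockout and 4.77, 4.19, 3.92 and 5.17 in E2A knockout cells. The genotypes overlapped, although the lowest 3 values were E2A knockout arrays. In each genotype the arrays with high Ly6d read above those with low Ly6d. The difference was -0.63 in E2A knockout against WT cells (SE 0.37, interval -1.47 to 0.21) and -0.61 with Ly6d as a covariate. With the 4 arrays of high Ly6d left out, which leaves WT 1 as the only WT array, it was -0.75. It was -0.30 without WT replicate 2 and -0.96 without WT replicate 1, so the size rests on which WT array is used. With the hybridization control level as covariate it was -0.14. In HEB knockout cells it was -0.13 (SE 0.43).

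**Figure D4:**
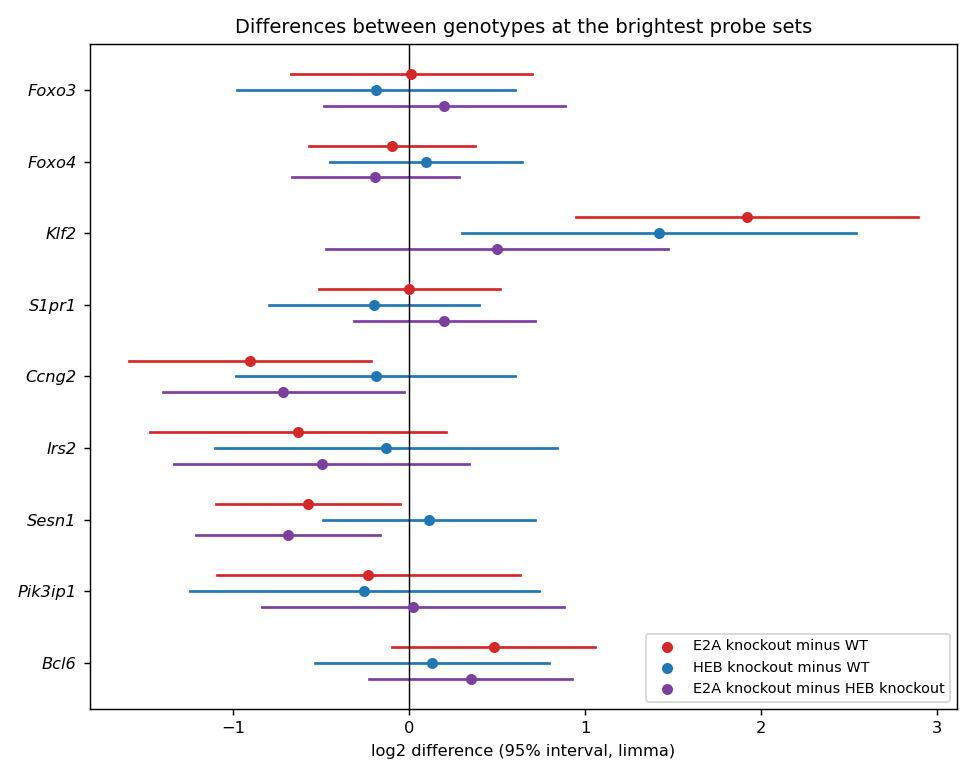
Log2 differences between genotypes at the brightest probe set of each of the 9 genes, as points with 95% intervals from limma, in red for E2A knockout minus WT, blue for HEB knockout minus WT and purple for E2A knockout minus HEB knockout. The interval of Klf2 lies above 0 in both comparisons with WT (0.95 to 2.89 and 0.30 to 2.54), and those of Ccng2 and Sesn1 lie below 0 in both comparisons of E2A knockout cells, although none passed after adjustment.

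The wider pathway was read from 6 lists. Of 37 tested FOXO factors and PI3 kinase, AKT and SGK regulators, 1 fell in E2A knockout cells, Foxo1, and 0 rose, with 7 at an unadjusted p under 0.05, 27 of 37 negative and a median of -0.27 against -0.05 over all tested genes. Among 42 tested FOXO target genes 1 fell, Il7r, the IL-7 receptor chain (-2.15, SE 0.32, limma adjusted p = 0.0330), and 0 rose. An unadjusted limma p under 0.05 was found for 16, Klf2, Ccng2 and Sesn1 among them (13.4% of all tested genes had one). Of the 42, 26 were negative, with a median of -0.25. Over all tested genes 54.9% were negative in E2A knockout against WT cells. The call of Il7r was lost without either WT array, either HEB_KO array or E2A_KO replicate 1 (adjusted p 0.0717 to 0.3159). Thus 2 known FOXO1 targets in the gate and the homing axis, Il7r and Klf2, read in opposite directions on the E2A knockout arrays. Between E2A and HEB knockout cells 0 members of either list passed by limma, with 7 of 37 and 12 of 42 at an unadjusted p under 0.05, against 16.5% of all tested genes. In HEB knockout against WT cells 0 passed, with 1 in each list at that level against 2.61% of all genes, and the medians were -0.01 and 0.01 against 0.09 over all genes.

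The other sestrin that the rule named was Sesn3, also a FOXO target. It read 7.02 and 7.47 in WT, 7.69 and 7.38 in HEB knockout and 6.23, 6.28, 6.28 and 6.62 in E2A knockout cells, lower on all 4 E2A knockout arrays than on the 4 others, as was Sesn1. It differed by -0.89 from WT (SE 0.23, limma adjusted p = 0.1485) and by -1.18 from HEB knockout cells (SE 0.23, limma adjusted p = 0.0946). Averaged over its probe sets Sesn3 differed by only -0.18 and -0.56. Arrays lower without overlap were found for 15.4% of all tested genes against WT and 21.6% against HEB knockout cells. Sesn2, of the same lists, read the other way, at 5.28, 5.38, 5.47 and 5.72 in E2A knockout and 4.78 and 5.05 in WT cells. Its difference was 0.55 (SE 0.22, limma adjusted p = 0.3438). The sestrins therefore did not move alike. Of 15 tested sestrins, cyclin G and other p53 target genes 0 passed in E2A knockout against WT cells by limma. An unadjusted limma p under 0.05 was found for 6, against 13.4% of all tested genes. Of the 15, 7 were positive and 8 negative. Trp53inp1, a p53 target of the autophagy pathway, differed there by -1.46 (SE 0.40, limma adjusted p = 0.1728).

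In the KLF family 0 of 12 tested genes passed in E2A knockout against WT cells by limma. An unadjusted limma p under 0.05 was found for 4, against 13.4% of all tested genes. Of the 12, 6 were positive and 6 negative, with a median of 0.17. After Klf2 the smallest p was that of Klf9, which differed by 1.09 (SE 0.41, limma adjusted p = 0.3055), and by 0.58 without WT replicate 1 and 1.61 without WT replicate 2. Klf3 and Klf10, also among the 4, read the other way, at -1.43 (SE 0.58) and -1.46 (SE 0.62). Among 12 sphingosine 1-phosphate receptor and metabolism genes 0 passed (2 at an unadjusted p under 0.05, against the same 13.4%). S1pr3 differed by 1.06 (SE 0.33, limma adjusted p = 0.2277), from 7.85 and 9.02 in WT to 9.35 to 9.64 in E2A knockout cells, and S1pr4 by -0.65 (SE 0.28, limma adjusted p = 0.3592). Without WT replicate 1 and without WT replicate 2 in turn, S1pr3 differed by 0.48 and 1.65 and S1pr4 by -0.92 and -0.39. With the hybridization control level as covariate S1pr3 differed by 1.79 and S1pr4 by -0.24. Of 16 tested genes for BCL6, its corepressors and the genes it represses 0 passed by limma, 10 positive and 6 negative. An unadjusted limma p under 0.05 was found for 2 of the 16, again against 13.4% of all tested genes. Socs2, a STAT5 target that restrains cytokine signalling, differed by 1.73 (SE 0.35, limma adjusted p = 0.0868) and Id2, an inhibitor of E proteins, by -2.15 (SE 0.66, limma adjusted p = 0.2222). Averaged over their probe sets they differed by 0.49 and -0.67.

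**Figure D5:**
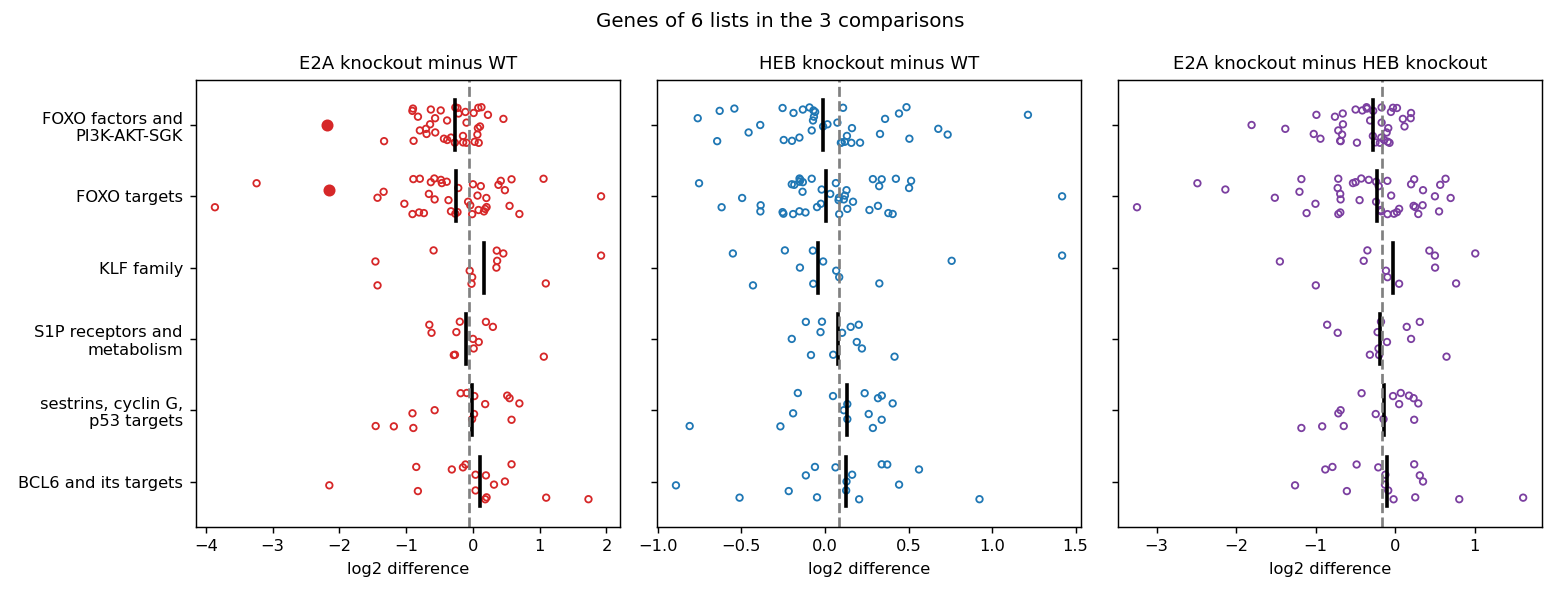
Log2 differences (x axis) of the tested genes of 6 lists in the 3 comparisons. Open points did not pass, filled points passed, black bars are list medians and the dashed line is the median of all tested genes (-0.05, 0.09 and -0.16 from left to right). The filled points are Foxo1 and Il7r in E2A knockout minus WT, 1 in each of the upper 2 lists.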

How the data were processed

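For 8 Affymetrix arrays the authors deposited 1 intensity for each probe set, made with RMA according to the submitters' processing notes, with no version stated, and linear in scale as the range shows. RMA summarises the probes of a set after quantile normalization, which is meant to even out overall shifts between arrays. Some shift remained. Upper quartiles of intensity were 54.88 to 62.75 on E2A knockout arrays and 63.32 to 68.51 on the others. Between the knockouts the median difference over all genes was -0.16, and -0.03 with cyclic loess. With cyclic loess Ccng2 differed there by -0.46, Sesn1 by -0.47 and Klf2 by 0.73. The values were taken to log2 without further normalization. Of 45101 probe sets, 34945 name 1 gene, 932 several, 9160 none and 64 are controls. Each gene is its brightest probe set, kept if above the array median on at least 2 arrays. Genotype means were estimated in 1 limma model (3.58.1, R 4.3.3) over the 8 arrays (5 residual degrees of freedom), tested two-sided and adjusted by Benjamini-Hochberg, and again on 20849 single-gene probe sets. The number of arrays limits precision, with a median SE of 0.28, 0.323 and 0.28 for E2A knockout against WT, HEB knockout against WT and E2A against HEB knockout. The scripts were tested on simulated data.

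The 9 genes and the lists were chosen with earlier results of these data known. Named were the 9 genes, Foxo1, Tcf3 and Tcf12, from each list its called members (at most 6) or else the 2 with the smallest p, and the 3 genes with the highest Pearson r to each of the 9, and those printed are a part of these. Sesn2 was added besides, as the sestrin that read the other way, Klf3 and Klf10 as KLF genes that did so, and cell type markers as checks of the cells. No label says that replicate numbers pair the samples, so the main fit took them as unpaired. Promoter windows come from RefSeq (GRCm38.p6). Alternatives covered the filter, normalization, probe set rule, variance model, samples, pairing and each array left out. Those on Ly6d, the hybridization controls, WT 2 with HEB_KO 1 and a crossed pairing were chosen after seeing the data.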

Additional observations from a re-analysis of the deposited data

Results flagged for a closer look

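The effect of E2A loss differed from that of HEB loss by -4.52 on the log2 scale for Tcf3 and by 1.77 for Tcf12, the targeted genes, by limma over all genes. Sesn3 on E2A_KO 4 (6.62) stood above the other 3 E2A knockout arrays (6.23 to 6.28), with a gap of 0.87 of the group's range. It was the 1 such value among 39 probe sets examined, and chance gives about 1 in 20.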

How the results depend on the processing

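In all 3 comparisons 0 of the 9 genes passed under any alternative that tested them, which were 21 for Klf2, Foxo3, Ccng2, Sesn1 and Pik3ip1, 20 for Foxo4, S1pr1 and Irs2 and 19 for Bcl6, since the filter at the 75th percentile left out the latter 4 and the mean of probe sets also left out Bcl6. In E2A knockout against WT cells Klf2, Ccng2, Irs2 and Sesn1 kept the sign of their log2 difference in those run. The smallest adjusted p of Klf2 there was 0.0626, without E2A_KO replicate 3, and the largest 0.9647. Over all genes the calls ran from 0 to 104 for E2A knockout against WT (53 in the main analysis; 2 to 104 with an array left out), 0 throughout for HEB knockout against WT, and 0 to 42 between the knockouts (14 in the main analysis; 1 to 21 with an array left out). Some signs reversed, and no reversed value passed. For E2A knockout against WT these were Foxo3 (-0.041 with median centring, -0.20 with the replicate block, -0.086 with WT replicate 2 and HEB_KO replicate 1 both left out, -0.60 with the hybridization control level as covariate), Foxo4 (0.040 with the mean of all probe sets, 0.015 without the arrays of high Ly6d), Pik3ip1 (0.11 with both arrays out, 0.24 with the hybridization covariate, 0.39 without high Ly6d) and S1pr1 (-0.050 with median centring, -0.11 with cyclic loess, -0.15 with the block and without high Ly6d, -0.13 with both out, -0.28 with the hybridization covariate, -0.0025 with Ly6d as covariate). For HEB knockout against WT they were Foxo3 (0.17 with both out and without high Ly6d), Irs2 (0.014 likewise) and Foxo4 (-0.027 with the mean of probe sets). Between the knockouts they were Foxo3 (-0.0076 with the block, -0.25 with both out, -0.36 with the hybridization covariate, -0.15 without high Ly6d), Foxo4 (0.067) and Pik3ip1 (-0.38) with the mean of probe sets, Pik3ip1 with median centring (-0.070) and the block (-0.052), and S1pr1 with the hybridization covariate (-0.054).

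With 1 array left out, the ranges of genes that reversed were, for E2A knockout against WT, -0.13 to 0.11 (Foxo3), -0.13 to 0.13 (S1pr1) and -0.57 to 0.11 (Pik3ip1). For HEB knockout against WT they were -0.64 to 0.26 (Foxo3), -0.020 to 0.21 (Foxo4), -0.46 to 0.20 (Irs2), -0.85 to 0.35 (Pik3ip1) and -0.0066 to 0.26 (Bcl6), -0.17 to 0.9999 (S1pr3), -0.036 to 0.48 (Sphk2), and between the knockouts -0.25 to 0.65 (Foxo3), -0.064 to 1.06 (Klf2) and -0.58 to 0.62 (Pik3ip1). The causes were not tested. Same-numbered WT and HEB knockout arrays deviated in opposite directions (correlation -0.277), so a crossed pairing was also fitted, which called 0 genes and 0 of the 9. A lone array of a genotype is assumed to vary like the other genotypes.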
